A study of Mus musculus with 14 samples.

Results

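Mcam, Nppb, Mycn, Shroom2 and Alkbh3 are 5 of the 14241 genes measured in this series of mouse embryonic fibroblasts. They were chosen for their RNA-seq differences between METTL3 knockdown and the Scram control in these same libraries, Mcam and Nppb for lower values and Mycn, Shroom2 and Alkbh3 for higher ones. Their RNA-seq values in METTL3 knockdown, and any ratio built on them, are therefore given as a description with no test. Ribosome footprints were not used in the choice and were tested. All 5 genes passed the filter on low values in both assays, which kept 9018 genes in RNA-seq and 9531 in Ribo-seq.

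METTL3 is the catalytic subunit of the complex that writes N6-methyladenosine (m6A) on mRNA, often within the sequence DRACH, of which GGACT is one form. Readers of m6A are known to shorten the life of many methylated mRNAs and to affect the translation of others. m6A itself was not measured here. The genes have separate functions: Mcam encodes a cell surface adhesion molecule of the immunoglobulin superfamily (CD146), known from endothelium and pericytes. Nppb encodes the precursor of the hormone brain natriuretic peptide, known from heart muscle. Mycn encodes a MYC family transcription factor, Shroom2 an actin-binding protein of the family that shapes cells by apical constriction, and Alkbh3 a dioxygenase that removes methyl groups from adenine and cytosine in DNA and RNA.

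C57BL/6J fibroblasts, grown in DMEM with 10% fetal bovine serum, gave 14 libraries, made from footprints that ribosomes protect, cut from gels at 25 to 35 nt (Ribo-seq), or from fragmented RNA at 40 to 60 nt (RNA-seq). METTL3 knockdown, knockdown of ABCF1, a ribosome-associated ATPase, and Scram, the control of the knockdowns, had 2 replicates per assay. Torin1, which blocks the kinase mTOR, was given at 250 nM for 2 h and had 1 library per assay. Cells of all groups were washed and lysed with cycloheximide at 100 µg/ml, which holds ribosomes in place. The labels name no hairpin or clone, do not say which cells received Torin1 or which libraries received its vehicle DMSO, and leave unsaid whether replicates came from separate cultures. The p-values therefore measure the spread between these libraries only, which may be technical.

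Ribo-seq libraries held 1764404 to 5155237 reads and RNA-seq libraries 1197860 to 3802703, as recovered from the deposited values. In RNA-seq of replicate 2 and Torin1, Lars2 alone held 35.4% to 41.6% of the reads and Tmem38b 8.2% to 10.9%. This left fewer reads for all other genes there. Replicate 1 libraries resembled each other whatever their group, and so did those of replicate 2 with Torin1, which gives 2 sets. Across genes, which are not independent replicates, they correlated at 0.92 to 0.98 within and 0.65 to 0.71 between sets in Ribo-seq, and at 0.86 to 0.97 and 0.58 to 0.67 in RNA-seq. Differences are therefore given against Scram of the same replicate, and Torin1 against Scram replicate 2. Mettl3 had 2.22 and 4.62 RPKM (reads per kilobase of feature, scaled to library depth) in METTL3 knockdown Ribo-seq against 17.9 and 12.8 in Scram, which is 12.3% and 38.7% of Scram of the same replicate after scaling. Mettl3 RNA was at 29.0% and 77.8% of Scram, from 12 and 9 reads, and the 95% counting interval of the second value, 37.5% to 162%, includes no difference. Abcf1 in ABCF1 knockdown was at 34.3% and 50.6% of Scram in Ribo-seq. All 10 fibroblast markers were listed in some library, but Pdgfra and Pdgfrb in replicate 1 alone. They summed to 6440 to 9970 RPKM in METTL3 knockdown and 6290 to 8230 in Scram in Ribo-seq, and to 2550 to 3910 and 3140 to 4840 in RNA-seq.

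The promoters of Nppb and Mcam, the genes with lower values, are shown because these 2 held matches to letters that the other 3 lack, a TATA box in Nppb and a cAMP response element in Mcam. Each window runs from 250 bases before to 50 after the RefSeq start on GRCm38.p6, 5′ to 3′ on the strand of the gene, with the matches below in capitals. The RefSeq starts lie 112 and 96 bases downstream of the start of the GENCODE M21 transcript measured. Matches nearer to the RefSeq start than that, among them all 3 named for Nppb, therefore lie within the span of that transcript. The same holds for the cAMP response element of Mcam.
Nppb, chr4:147985650-147985949, plus strand: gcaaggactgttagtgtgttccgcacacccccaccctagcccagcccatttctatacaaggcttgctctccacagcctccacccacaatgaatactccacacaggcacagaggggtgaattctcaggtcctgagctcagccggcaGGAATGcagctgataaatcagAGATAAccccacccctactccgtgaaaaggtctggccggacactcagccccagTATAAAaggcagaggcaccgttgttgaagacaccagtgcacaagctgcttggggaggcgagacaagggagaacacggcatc
Mcam, chr9:44134408-44134707, plus strand: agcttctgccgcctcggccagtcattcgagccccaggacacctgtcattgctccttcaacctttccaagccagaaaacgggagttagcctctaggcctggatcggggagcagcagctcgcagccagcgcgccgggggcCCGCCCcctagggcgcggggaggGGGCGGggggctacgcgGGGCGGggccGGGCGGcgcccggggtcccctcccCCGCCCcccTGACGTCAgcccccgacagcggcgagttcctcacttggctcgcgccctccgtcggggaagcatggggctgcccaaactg

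Nppb held a TATA box (TATAAA) at -31 from the RefSeq start, the GATA factor letters AGATAA at -84 and the TEAD letters GGAATG at -105. On both strands, these letters were found in 13.6%, 11.2% and 14.7% of 32851 promoter windows of the same length. Mcam held the cAMP response element TGACGTCA at -29, found in 1.79% of windows, and 5 GC boxes (GGGCGG), found at least once in 35.7%. The AP-1 letters TGANTCA, found in 7.81% of windows, and the E-box CACGTG, found in 7.15%, were in none of the 5 promoters. The G and C share was 55.7% for Nppb and 72.7% for Mcam, and 56.7% for Mycn, 71.3% for Shroom2 and 62.0% for Alkbh3, against a median of 52.7%. A match describes letters and is no evidence of binding.

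GGACT, read on the mRNA strand of the measured transcript, was counted because METTL3 prefers such letters. There was no GGACT in Nppb, 1 in Mcam, 2 in Mycn, 4 in Shroom2 and 4 in Alkbh3, all of them in coding sequence. Per kilobase this was 2.87 in Alkbh3, above the median of 1.05 over 8962 transcripts, and 0.75, 0.53 and 0.33 in Mycn, Shroom2 and Mcam, all below it. Of transcripts of like length, 11.6% held at least as many as Alkbh3. For Mycn, Shroom2 and Mcam this share was 79.6%, 89.7% and 95.5%. At least 1 GGACT was found in 92.2% of all transcripts. For each gene with a match, the one nearest to the stop codon is printed with GGACT in capitals. For Mycn it starts 10 bases before the last base of the stop codon, and the others start 223 bases before it or more. A GGACT within 200 bases of the stop codon was found in 40.6% of the 8962 transcripts.
Mcam: tcagccaagtGGACTggtttttgat
Mycn: gaacacgctcGGACTtgctaaacgt
Shroom2: ggcaggcagaGGACTctggtgacca
Alkbh3: ggtgccactcGGACTtttgagatga

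**Figure D1:**
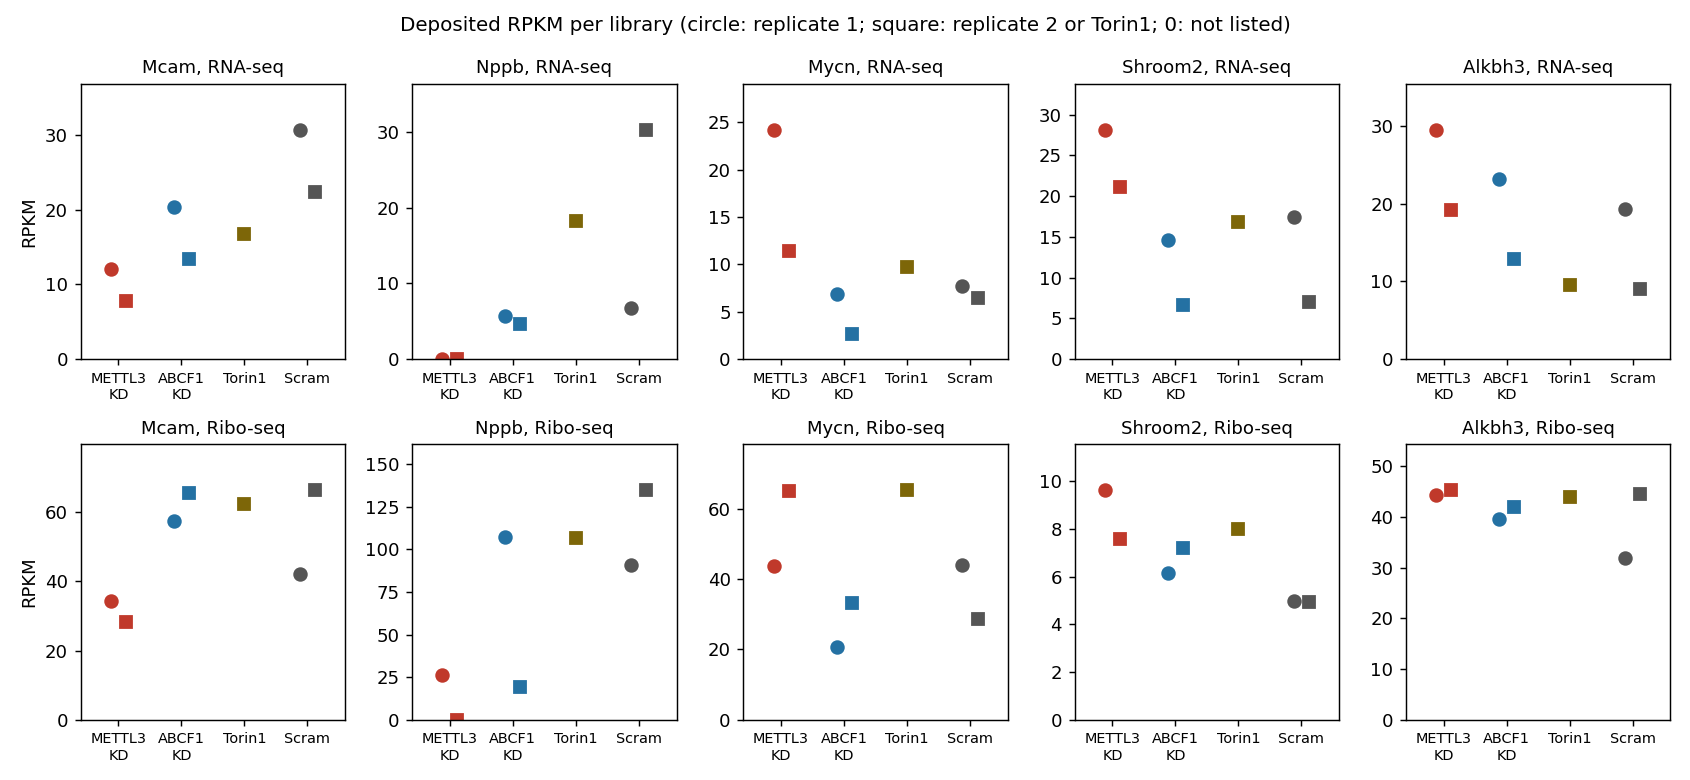
Deposited RPKM of the 5 genes in each of the 14 libraries, RNA-seq above and Ribo-seq below, by group, with circles for replicate 1 and squares for replicate 2 and Torin1; 0 means not listed. Shroom2 footprints lie at 9.62 and 7.58 in METTL3 knockdown, above 4.97 and 4.94 in Scram, and Nppb was not listed in either METTL3 RNA-seq library.

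Mcam (GENCODE M21 transcript ENSMUST00000034650, GRCm38 chromosome 9, 44134562 to 44142727, plus strand, 16 exons) had 12.1 and 7.72 RPKM of RNA in replicates 1 and 2 of METTL3 knockdown, 20.4 and 13.4 in ABCF1 knockdown, 16.8 with Torin1, and 30.7 and 22.3 in Scram. METTL3 knockdown held the lowest RNA values of any group and Scram the highest, with no overlap between them. On the scaled values, 9.72% of all tested genes had both METTL3 RNA libraries below both Scram libraries. The METTL3 values were 38.6% and 38.0% of Scram of the same replicate, so the 2 replicates gave nearly the same RNA difference, -1.28 and -1.31 on the log2(RPKM + 1) scale. Footprints of Mcam stood at 34.4 and 28.3 RPKM in METTL3 knockdown, 57.5 and 65.5 in ABCF1 knockdown, 62.3 with Torin1, and 42.0 and 66.3 in Scram. Both METTL3 libraries were below all 5 others, at 81.0% and 45.8% of Scram. The footprint difference was -0.70 (SE 0.30, n = 2 per group; limma, adjusted p = 1, unadjusted 0.0733). Against ABCF1 knockdown it was -0.86 (SE 0.30; limma, adjusted p = 1, unadjusted 0.0393).

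In ABCF1 knockdown Mcam RNA was at 63.0% and 76.1% of Scram and its footprints at 125% and 101%, a footprint difference of 0.16 (SE 0.30; limma, adjusted p = 1). With Torin1 the RNA was 84.6% and the footprints 81.0% of Scram replicate 2, with no replicate. Smooth muscle and pericyte markers also summed to less in METTL3 knockdown than in Scram, with 6 of 7 listed and Rgs5 never listed. Not every marker was lower. Cspg4 was listed in METTL3 knockdown and not in Scram. Des footprints were 2.2 against 1.48 RPKM in replicate 1 and 4.0 against 7.72 in replicate 2. The summed Ribo-seq level of these markers, nearly all Acta2 and Tagln, was 1830 to 1910 RPKM in METTL3 knockdown, 3520 to 4510 in ABCF1 knockdown, 2550 with Torin1 and 2970 to 4550 in Scram. In RNA-seq it was 300.0 to 423 in METTL3 knockdown, 333 to 697 in ABCF1 knockdown, 680 with Torin1 and 806 to 956 in Scram. Their part in the result was not tested, and in such bulk samples fewer cells of a type and less RNA per cell cannot be told apart. Of 6 endothelial markers, Kdr and Tek were listed in Ribo-seq, and Pecam1, Cdh5, Tie1 and Emcn were not. The endothelial sum was 0.898 to 1.78 RPKM in METTL3 knockdown, at most 2.04 in ABCF1 knockdown, 1.68 with Torin1 and 1.19 to 1.61 in Scram. In RNA-seq, where Pecam1 was listed too, it was at most 1.43, 2.16, 0 and 1.48 RPKM in METTL3 knockdown, ABCF1 knockdown, Torin1 and Scram.

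Nppb (ENSMUST00000103231, chromosome 4, 147985788 to 147987205, plus strand, 3 exons) was not listed in either METTL3 knockdown RNA-seq library. Its RNA was 5.65 and 4.59 RPKM in ABCF1 knockdown, from 6 and 5 reads, 18.2 with Torin1, and 6.74 and 30.3 in Scram, from 9 and 90 reads. A floor was set at 3 reads in replicate 1 and at 5 reads, the smallest number listed, in replicate 2. Scram RNA stood 2.82-fold and 5.78-fold above the floor of the METTL3 knockdown library of the same replicate. These folds take the Scram values as measured and leave out their counting error, which is large for 9 reads. In replicate 2 the floor allows for no counting error in METTL3 knockdown either, so the true differences can be smaller. In replicate 1 an absent value also need not mean a low level. Myc had no value in any replicate 1 library and was listed in every library of the other set. In replicate 2 the ABCF1 value of 4.59 RPKM rests on 5 reads, the same number as the floor of the METTL3 library. As deposited that floor, 4.77 RPKM, lies above it, but after scaling the ABCF1 value (6.46) lies above the floor. The order of these 2 groups was therefore not detectable at this depth. The Scram replicates stood far apart.

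Footprints of Nppb stood at 26.4 RPKM in replicate 1 of METTL3 knockdown and were not listed in replicate 2. They were 107 and 19.5 in ABCF1 knockdown, 107 with Torin1, and 90.9 and 135 in Scram. In replicate 1 the METTL3 value was 28.8% of Scram, with a 95% counting interval of 18.9% to 43.9% from 25 and 159 reads. In replicate 2 Scram stood 22.8-fold above the floor of 5 reads of the METTL3 library, with counting error again left out. METTL3 and Scram footprints did not overlap, but ABCF1 replicate 2 was also below replicate 1 of METTL3 knockdown. On the scaled values, 10.3% of all tested genes had both METTL3 footprint libraries below both Scram libraries. The fitted difference of -4.37 (SE 1.85; limma, adjusted p = 1, unadjusted 0.0673) rests on a library set to 0, moves with the pseudocount and should not be read as a fold change.

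The ABCF1 replicates stood apart for Nppb: in replicate 2 footprints were 14.8% of Scram and RNA 19.2%, and in replicate 1 they were 107% and 79.5%. With Torin1 RNA and footprints were 67.6% and 68.4% of Scram replicate 2. Of 7 cardiomyocyte markers 4 were listed in Ribo-seq, and Nppa, Myh6 and Myh7, which define that cell type, were not. Their summed level was 0.682 to 11.3 RPKM in METTL3 knockdown, 2.23 to 16.8 in ABCF1 knockdown, 33.1 with Torin1 and 1.66 to 9.70 in Scram. Nearly all of the higher values were Tnnt2, which reached 32.4 RPKM with Torin1. Their part in the result was not tested.

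Mycn (ENSMUST00000043396, chromosome 12, 12936093 to 12941914, minus strand, 3 exons) had 24.2 and 11.4 RPKM of RNA in METTL3 knockdown, 6.88 and 2.68 in ABCF1 knockdown, 9.69 with Torin1, and 7.67 and 6.40 in Scram. METTL3 knockdown was highest and ABCF1 knockdown lowest within each replicate. The METTL3 values were 310% and 196% of Scram and the ABCF1 values 85.2% and 53.1%. Footprints of Mycn stood at 43.7 and 65.0 RPKM in METTL3 knockdown, 20.7 and 33.3 in ABCF1 knockdown, 65.3 with Torin1, and 44.0 and 28.8 in Scram. METTL3 knockdown and Scram overlapped, since replicate 1 was at 98.4% and replicate 2 at 242% of Scram, while both METTL3 libraries were above both ABCF1 libraries. The footprint difference was 0.61 (SE 0.43; limma, adjusted p = 1) against Scram and 1.09 (SE 0.43; limma, adjusted p = 1, unadjusted 0.0574) against ABCF1 knockdown.

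ABCF1 knockdown had 42.8% and 118% of the Scram footprints of Mycn, so its replicates disagreed in direction (-0.48, SE 0.43; limma, adjusted p = 1). With Torin1 the RNA was 171% and the footprints 196% of Scram replicate 2, the same direction in both assays.

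Shroom2 (ENSMUST00000101141, chromosome X, 152609509 to 152769461, minus strand, 10 exons) had 28.2 and 21.2 RPKM of RNA in METTL3 knockdown, 14.6 and 6.60 in ABCF1 knockdown, 16.8 with Torin1, and 17.4 and 7.05 in Scram. As deposited, both METTL3 libraries were above every other library, and after scaling they were at 159% and 330% of Scram. On the scaled values replicate 1 of METTL3 knockdown (21.2) and Torin1 (21.1) were nearly equal. The footprints were 9.62 and 7.58 RPKM in METTL3 knockdown, 6.17 and 7.18 in ABCF1 knockdown, 8.0 with Torin1, and 4.97 and 4.94 in Scram. Here too METTL3 knockdown lay above Scram in each replicate, at 192% and 164%. The Scram values differed little from each other as deposited, but on the scaled values they were 5.82 and 4.56. The footprint difference of 0.72 (SE 0.36; limma, adjusted p = 1, unadjusted 0.107) did not pass the test over all genes. Against ABCF1 knockdown it was 0.40 (SE 0.36; limma, adjusted p = 1).

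Both ABCF1 libraries and the Torin1 library were also above Scram in Shroom2 footprints: ABCF1 knockdown had 113% and 148%, and Torin1 had 140%. RNA was 79.7% and 119% of Scram in ABCF1 knockdown and 269% with Torin1, so a Shroom2 RNA value above Scram was also seen with Torin1. Shroom2 had the lowest footprint level of the 5 genes, a scaled mean of 6.97 RPKM against a median of 22.6 over tested genes, whereas its RNA level of 15.6 was above the median of 9.70. Of 5 epithelial markers all were listed in Ribo-seq, nearly all of the sum being Krt18. Their summed level was 100.0 to 176 RPKM in METTL3 knockdown, 205 to 265 in ABCF1 knockdown, 81.5 with Torin1 and 179 to 205 in Scram, and in RNA-seq 25.0 to 45.9, 29.7 to 84.3, 50.7, and 53.5 to 62.2 for METTL3 knockdown, ABCF1 knockdown, Torin1 and Scram. Epcam was listed in replicate 2 of METTL3 Ribo-seq alone, at 15.7 RPKM. Their part in the result was not tested.

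Alkbh3 (ENSMUST00000111240, chromosome 2, 93980550 to 94010807, minus strand, 10 exons) had 29.5 and 19.2 RPKM of RNA in METTL3 knockdown, 23.2 and 12.8 in ABCF1 knockdown, 9.58 with Torin1, and 19.3 and 9.05 in Scram. Within each replicate the order was METTL3 knockdown, ABCF1 knockdown and Scram, at 150% and 233% of Scram for METTL3 knockdown and 114% and 180% for ABCF1 knockdown. Its footprints varied less: 44.3 and 45.2 RPKM in METTL3 knockdown, 39.5 and 42.0 in ABCF1 knockdown, 44.0 with Torin1, and 32.0 and 44.4 in Scram. The METTL3 footprints were 137% and 109% of Scram, a difference of 0.28 (SE 0.26; limma, adjusted p = 1). As deposited, replicate 1 of METTL3 knockdown lay just under Scram replicate 2. On the scaled values behind the differences, METTL3 knockdown (51.4 and 44.8) lay above Scram (37.5 and 41.1) with no overlap, as for 12.2% of all tested genes. In ABCF1 knockdown the difference was 0.06 (SE 0.26; limma, adjusted p = 1), and with Torin1 the RNA was 119% and the footprints 85.3% of Scram replicate 2. A second transcript (ENSMUST00000040005) was listed only in replicate 1, with 2.23% to 10.0% of the RPKM of the gene.

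Over all genes limma called none in any comparison with an adjusted p under 0.05, for Ribo-seq (0 of 9531, 0.0% each for METTL3, ABCF1, Torin1 and METTL3 against ABCF1), RNA-seq (0 of 9018, 0.0% each) and the ratio (0 of 9425, 0.0% each). At an unadjusted p under 0.05 there were 242, 107, 304 and 201 genes in Ribo-seq, in that order, 63, 79 and 203 in RNA-seq for METTL3, ABCF1 and Torin1, and 46, 37 and 253 in the ratio. With the replicate number as a block, 1 gene passed in Ribo-seq for METTL3, 0 for ABCF1 and 5 for METTL3 against ABCF1. Torin1, whose title gives no replicate number, was put in the block of replicate 2, the set that it resembled. The 5 chosen genes were not among the genes that passed. Their lowest blocked adjusted p in METTL3 footprints was 0.189 (Nppb, SE 1.01). The other adjusted p-values were 0.322 for Mcam, 0.329 for Shroom2, 0.529 for Mycn and 0.618 for Alkbh3. Unadjusted, the blocked limma p was 0.00365 for Nppb, which rests on a library set to 0, 0.028 for Mcam and 0.0299 for Shroom2. It was 0.133 for Mycn and 0.219 for Alkbh3. An unadjusted blocked p under 0.05 was found for 1258 of the 9531 genes. A missed threshold does not show that the groups were alike.

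The directions of the 5 genes are given beside the same counts over all tested genes. In METTL3 footprints 2 of the 5 genes, Mcam and Nppb, were below Scram in each replicate, as were 25.2% of all tested genes. Shroom2 and Alkbh3 were above it in each, as were 27.9%. On the scaled values both METTL3 footprint libraries lay below both Scram libraries for Mcam and Nppb, as for 10.3% of all tested genes. They lay above both for Shroom2 and Alkbh3, as for 12.2%. In ABCF1 footprints none of the 5 was lower in each (22.9% of all genes), and Mcam and Shroom2 were higher in each (25.4%). In ABCF1 RNA, which shares the Scram libraries with the choice of the genes, Mcam, Nppb and Mycn were lower in each (29.0%) and Alkbh3 was higher (21.8%). The METTL3 RNA directions, fixed by the choice, were shared by 26.0% of genes for lower and 25.4% for higher values. Without overlap between METTL3 and Scram RNA on the scaled values, the shares were 9.72% for lower and 9.35% for higher.

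**Figure D2:**
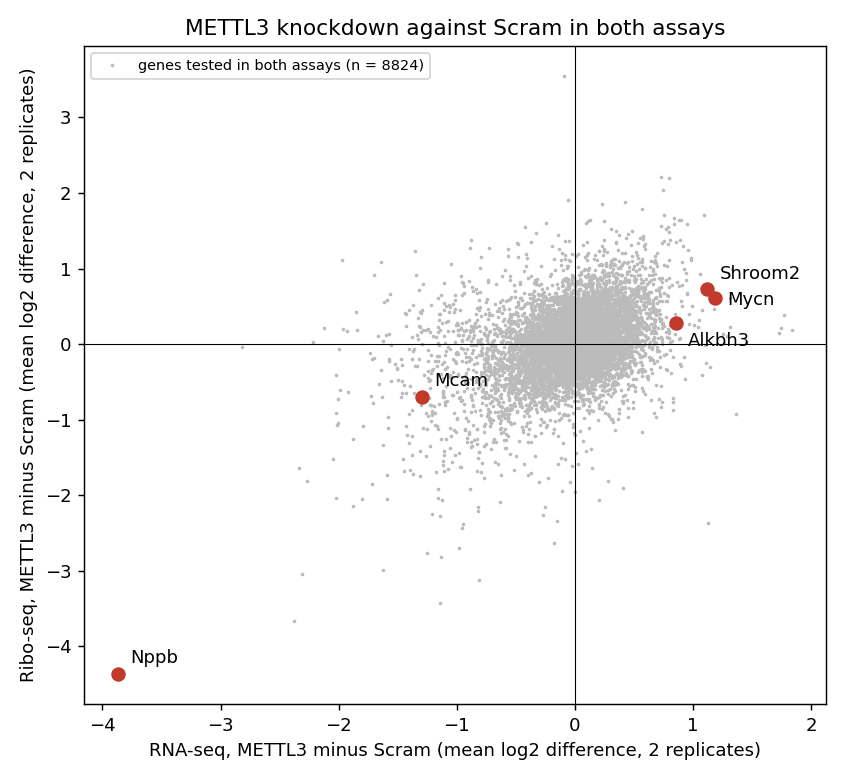
Mean log2 difference between METTL3 knockdown and Scram over 2 replicates, RNA-seq on the x axis and Ribo-seq on the y axis, for 8824 genes tested in both assays, with the 5 genes in red. Chosen on the x axis, they lie at its ends; on the y axis Shroom2 (0.72) and Mycn (0.61) lie above most genes and Alkbh3 (0.28) lies among them.

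Read on the footprint axis alone, 95.2% of the 8824 genes measured in both assays had a lower METTL3 difference than Shroom2, 92.6% a lower one than Mycn and 75.9% a lower one than Alkbh3. For Mcam 5.12% had a lower one, and for Nppb none had. These positions are descriptions, because RNA and footprints of a gene are related and the genes were picked on RNA.

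**Figure D3:**
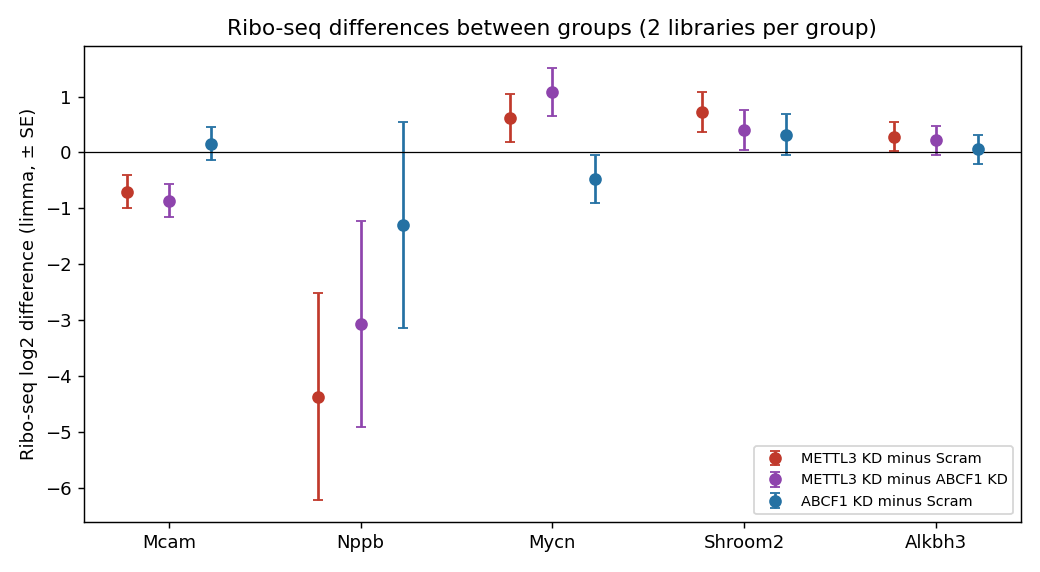
Ribo-seq log2 difference with its SE from limma for METTL3 knockdown minus Scram, METTL3 minus ABCF1 knockdown, and ABCF1 knockdown minus Scram, with 2 libraries per group. The widest bar belongs to Nppb (SE 1.85); Mcam lies at -0.70 and -0.86 in the first pair of contrasts and at 0.16 in the last.

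The ratio of footprints to RNA contains the RNA values used in the choice, so a low RNA value raises it by construction and a high one lowers it. The log2 ratio difference was 0.98 and 0.21 in replicates 1 and 2 of METTL3 knockdown for Mcam, -1.51 and 0.36 for Mycn, 0.20 and -0.99 for Shroom2, and -0.11 and -1.02 for Alkbh3. Its sign differed between replicates for Mycn and Shroom2, and for Nppb in METTL3 knockdown no ratio is given because its RNA was not listed. The ratio difference in ABCF1 knockdown shares the Scram RNA libraries with the choice of the genes. A high Scram RNA value raises it by construction and a low one lowers it. It was 0.94 and 0.39 for Mcam, 0.46 and 0.26 for Shroom2, -0.01 and -0.84 for Alkbh3, and -0.99 and 1.00 for Mycn. The log2 ratio level itself was between 1.04 and 2.02 for Mcam in all 7 pairs of libraries and between -1.66 and -0.40 for Shroom2, so per length (coding length for footprints, transcript length for RNA) Mcam had the higher ratio in every pair.

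Pathway lists around the 5 genes were read in the same fits, and no member passed the test. Beside the counts of each list in METTL3 footprints, 27.9% of all tested genes were higher and 25.2% lower in each replicate. Of the 12 genes of the AlkB family and its ASCC repair partners, 4 were higher and 1 was lower in METTL3 footprints in each replicate, with a median of 0.09 against 0.02 over all genes. Alkbh7, a mitochondrial member, had 0.64 (SE 0.30), Fto and Alkbh5, which remove m6A, had 0.02 (SE 0.25) and 0.15 (SE 0.40; limma, adjusted p = 1 for each). Of 18 genes of the m6A machinery, 16 were tested, with 2 higher and 7 lower in each replicate and a median of -0.07; the list holds Mettl3 itself. Wtap, a regulatory subunit of the writer complex, had -0.08 (SE 0.32) and the reader Igf2bp2 had -0.54 (SE 0.59; limma, adjusted p = 1 for each).

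Among 13 adhesion molecules of the immunoglobulin superfamily 8 were tested, and METTL3 footprints had a median of -0.34, with 2 higher and 5 lower in each replicate. Here and for the lists below, the shares over all tested genes were 27.9% higher and 25.2% lower. Vcam1, a cytokine-induced adhesion molecule, had -2.14 (SE 0.27), larger in size than Mcam, and Bcam, a laminin receptor, had 1.23 (SE 0.36), in the other direction. Nectin2, a junction protein, had 0.60 (SE 0.40; limma, adjusted p = 1 for each). Vcam1 was also at -1.15 and Bcam at 1.23 in ABCF1 knockdown. Of the MYC network 11 of 13 genes were tested, with 4 higher and 3 lower in each replicate and a median of -0.03: Mxd3, a repressor that pairs with Max, had 1.22 (SE 0.44), Max had -0.85 (SE 0.55) and Mlx had -0.05 (SE 0.55; limma, adjusted p = 1 for each). Myc was measured in replicate 2 alone, at -1.61. Of 12 Shroom family and apical constriction genes 11 were tested in footprints, with 3 higher and 4 lower in each replicate and a median of -0.05. The non-muscle myosin heavy chain Myh9 had -0.10 (SE 0.26), the GTPase Rhoa -0.14 (SE 0.79), and the myosin light chains Myl12a and Myl12b 0.32 (SE 1.15) and 0.31 (SE 0.31; limma, adjusted p = 1 for each). In the natriuretic peptide list 4 of 9 genes were tested, with Npr1 higher in each replicate. Nppb and Npr3 were lower in replicate 1 and not listed in replicate 2 of METTL3 knockdown, so the list median of -0.55 rests on values set to 0. The receptor Npr1 had 0.43 (SE 0.31; limma, adjusted p = 1), and the protease Furin was also not listed in some libraries.

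In METTL3 RNA-seq the list medians were 0.07 for the AlkB and ASCC genes, -0.12 for the m6A machinery, -0.26 for the adhesion molecules, -0.05 for the MYC network, -0.01 for the Shroom list and -0.39 for the natriuretic list, against -0.01 over all genes. In ABCF1 footprints they were 0.01, -0.03, 0.15, -0.41, 0.10 and -0.05 in the same order, against 0.00. In the MYC network, the list with the lowest of these ABCF1 medians, 0 of 11 genes were higher and 3 were lower in each replicate, beside the 25.4% and 22.9% of all tested genes.

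The genes with the most similar pattern were those with the smallest root mean squared distance over the 10 log2 differences from Scram, among 6933 genes listed in all 14 libraries. These differences share the Scram libraries of each assay. For Mcam they were Tiam2 (0.28), Arpc1a (0.30) and Bzw2 (0.35), against a median distance of 0.84. For Mycn they were Wrnip1 (0.37), Selenoo (0.44) and Irs2 (0.48), against 0.97, and for Shroom2 Sfrp4 (0.36), Cenph (0.40) and Mark4 (0.41), against 0.89. Alkbh3 had the closest neighbours, Mitd1 (0.16), Dsel (0.20) and Tshz3 (0.23), against 0.65. Nppb was not listed in all libraries and has none.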

How the data were processed

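Per the labels, 7 Ribo-seq and 7 RNA-seq libraries were made. The deposited files give RPKM per Ensembl transcript, as computed by the authors; the submitters' processing notes name cutadapt, Bowtie and GRCm38, and versions are not given in the sources used. GENCODE M21 held 22356 of the 22453 transcript identifiers, and each gene was represented by its transcript with the highest mean RPKM, set to 0 where absent. RPKM times length gave whole reads, within 0.02, for 98.7% to 98.8% of values in Ribo-seq over coding length and for 80.5% to 85.4% in RNA-seq over transcript length, and the step gave the depth. Replicate 1 files list values from 1 read, the others from 5. Small changes of genes with few reads were not detectable.

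Genes listed in at least 0.5 of the libraries with a mean RPKM of at least 1 were scaled to a common median, and log2(RPKM + 1) was fitted with limma 3.58.1 (eBayes with trend) in R 4.3.3 over all groups, with Benjamini-Hochberg adjustment over all tested genes and a threshold of 0.05. A fold on this scale understates changes of low genes. Residual degrees of freedom were 3, 3 and 6 for Ribo-seq, RNA-seq and the ratio. Same-numbered libraries deviated from their group means together (Ribo-seq correlations of 0.91 to 0.94, RNA-seq 0.82 to 0.88), so the numbers pair them. The main fit leaves this pairing out, so its SE and p-values also hold the difference between the sets. The fit with the block, with Torin1 in the block of replicate 2, is an alternative. Other alternatives were the pseudocount, the filter, the scaling, summed transcripts and leaving out each replicate. Promoters are from RefSeq (GRCm38.p6). The 5 genes, the gene lists and the tests were chosen with earlier results of these data known. Genes named are the 5, both targets, the members of each list with the highest RPKM, and the 3 nearest genes of each. Cell type markers are named too, and Lars2 and Tmem38b for their share of the RNA-seq reads.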

Additional observations from a re-analysis of the deposited data

How the results depend on the processing

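The replicate block left the size of the knockdown differences as it was and made their SE smaller; it called 1 gene for METTL3 in Ribo-seq, 5 for METTL3 against ABCF1 in Ribo-seq, and 126, 10 and 50 for Torin1 in Ribo-seq, RNA-seq and the ratio, where the fit without it called 0. For the 5 genes it changed no call. Torin1 calls also appeared with a pseudocount of 0.1 (22 in the ratio) and with no filter (15 in Ribo-seq, 55 in the ratio). The fitted METTL3 differences of the 5 genes in RNA-seq and Ribo-seq kept their sign under every alternative run. Nppb gave no value where genes had to be listed in every library. The fits that leave out 1 library do not pair the rest by replicate. For Mycn footprints the same-replicate METTL3 difference in replicate 1 was -0.02, so the sign kept by the fits was not seen there. The size for Nppb did not hold: its RNA difference was -7.06 with a pseudocount of 0.1 and -1.99 with 5. Signs turned in several ABCF1 values: the ratio of Nppb was 0.03 with a pseudocount of 0.1 and 0.11 without scaling, and that of Mycn was -0.12 with a pseudocount of 5 and -0.02 with no filter. Leaving out 1 library gave ranges of -0.02 to 0.50 for Mcam and -0.07 to 0.30 for Alkbh3 in ABCF1 Ribo-seq, -1.60 to 1.47 for Nppb and -0.49 to 0.58 for Mycn in the ABCF1 ratio, and -0.27 to 0.30 for Shroom2 and -2.48 to 0.11 for Nppb in ABCF1 RNA-seq. For METTL3 footprints against Scram the ranges were -0.95 to -0.38 for Mcam, -6.90 to -2.05 for Nppb, 0.27 to 1.08 for Mycn, 0.46 to 0.87 for Shroom2 and 0.18 to 0.51 for Alkbh3, and against ABCF1 -1.11 to -0.70, -5.60 to -0.75, 0.74 to 1.49, 0.15 to 0.56 and 0.13 to 0.34 for the same genes in that order. A group left with 1 library was assumed to vary like the others. The causes were not tested. Depth limits Nppb most, with 0 to 9 RNA-seq reads in both knockdowns and Scram replicate 1.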
